A study of Homo sapiens with 12 samples.

Results

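The 8 transcripts described here encode enzymes that make, phosphorylate or consume nicotinamide adenine dinucleotide (NAD): CD38, BST1, NAMPT, NMNAT1, NADK, NADSYN1, QPRT and SIRT1. They were chosen by gene symbol from the 26364 genes in the count files, and all 8 had enough reads to be among the 12671 genes tested. They were followed in the human HL-60 line, derived from a myeloid leukemia, in 4 groups of 3 RNA-seq libraries each. The untreated group is called 0 h. The others had spent 4 h, 2 d or 4 d in all-trans retinoic acid (ATRA, 1 µM), which drives this line toward neutrophils. No untreated library of a later time was used here, so time in ATRA and time in culture cannot be told apart. No label says whether the replicates were grown separately, and the p-values then measure the spread between these libraries.

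NAD carries electrons in metabolism and is also a substrate that several enzyme families break down. Cells make it from tryptophan through kynurenine and quinolinate, from nicotinic acid, or by salvage of the nicotinamide that NAD-consuming enzymes release. CD38 and BST1 (CD157) are surface ADP-ribosyl cyclases that cleave NAD and can form cyclic ADP-ribose, a calcium-mobilizing messenger, and CD38 is a long-known retinoic acid target in myeloid leukemia cells. NAD kinase adds the phosphate that makes NADP, whose reduced form feeds the oxidative burst of neutrophils.

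CD38 and BST1 are neighbours on chromosome 4, and a retinoic acid response element has been described in the first intron of CD38, outside the window shown. The promoter windows of CD38, which had the largest change of the 8, and of NAMPT, which was lowest at 2 d, are given to show the bases searched. Each runs from 250 bases before to 50 after the start site (RefSeq, GRCh38.p14; 5′ to 3′ on the strand of the gene), and 7 of the 8 genes had such a window in the table used.
CD38 promoter, chr4:15778078-15778377, plus strand: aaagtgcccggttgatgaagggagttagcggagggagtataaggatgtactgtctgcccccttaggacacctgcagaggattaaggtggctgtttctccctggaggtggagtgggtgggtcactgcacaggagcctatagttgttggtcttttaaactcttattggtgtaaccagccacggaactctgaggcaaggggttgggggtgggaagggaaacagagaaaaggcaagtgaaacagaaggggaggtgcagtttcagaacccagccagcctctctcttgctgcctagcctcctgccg
NAMPT promoter, chr7:106284934-106285233, minus strand: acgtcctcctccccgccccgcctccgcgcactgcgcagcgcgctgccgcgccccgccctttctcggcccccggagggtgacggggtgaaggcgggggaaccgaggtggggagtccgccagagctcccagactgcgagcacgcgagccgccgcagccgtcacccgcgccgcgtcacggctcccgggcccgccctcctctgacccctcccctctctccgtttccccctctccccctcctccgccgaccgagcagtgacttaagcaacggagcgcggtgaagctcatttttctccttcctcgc
The 10 windows of the 7 genes were searched on both strands for the hexamer AGGTCA, and for pairs of hexamers in the same orientation with 1, 2 or 5 bases between them. Each hexamer of a pair could read AGGTCA, or AGTTCA, or GGTTCA, or GGGTCA. A match to the single hexamer also counts where it lies inside a pair. Neither the hexamer AGGTCA nor such a pair occurred in any of the 10 windows, so no base is printed in capitals. The other hexamers were sought only in pairs. Outside such pairs, GGGTCA occurs in the CD38 window and, on the opposite strand, in the NAMPT window. Of 35116 windows of this length in the table, 13.8% held the hexamer, and 0.131%, 0.0399% and 0.0883% held pairs spaced by 1, 2 and 5 bases. The windows differed in base composition, with 54.0% G and C for CD38 and 73.0% for NAMPT.

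Libraries held 7866757 to 13658177 reads in genes. Levels are CPM, gene reads scaled to a common library size after TMM scaling, and log2 fold changes ± SE come from a fit to all 12 libraries with edgeR's quasi-likelihood test. The threshold for a call was 0.05 on the p adjusted by Benjamini-Hochberg over all tested genes. The promyelocyte markers MPO, ELANE, PRTN3, AZU1 and CTSG had reads at every time, and their summed level was 8150 to 9510 CPM at 4 d and 30500 to 43700 CPM at 0 h. It was 39500 to 66800 CPM at 4 h and 29100 to 37100 CPM at 2 d. Most of it was MPO, at 24800 to 32900 CPM at 2 d against 23300 to 36100 CPM at 0 h. The other promyelocyte markers were lower at 2 d than at 0 h, such as ELANE at 411 to 490 CPM against 1700 to 3710 CPM. The 5 markers of later granulocytes (ITGAM, CSF3R, FPR1, CYBB and NCF1) summed to 4620 to 6490 CPM at 4 d, against 559 to 898 CPM at 0 h. The 4 monocyte markers summed to 105 to 122 CPM at 4 d, against 43.0 to 52.2 CPM at 0 h and 16.7 to 19.6 CPM at 4 h. Most of their rise at 4 d was CSF1R, at 60.9 to 67.8 CPM against 1.82 to 2.02 CPM at 0 h. FCGR1A was at 28 to 47 CPM against 18.6 to 25.6 CPM. CD14 was lower, at most 16.9 CPM at 4 d against 20.4 to 24.7 CPM at 0 h, and CD163 was at 0 CPM in each 4 d library. The promyelocyte, granulocyte and monocyte sums moved with time in ATRA, and their part in the changes described here was not tested. For 4 erythroid markers the sum reached at most 0.824 CPM in any library. The 5 T and NK cell markers summed to 4.96 to 7.75 CPM at 4 d, against 0.637 to 1.07 CPM at 0 h. Most of that at 4 d was CD3E, at 4.56 to 7.32 CPM. The 3 B cell markers summed to 6.45 to 7.63 CPM at 4 d, against 9.84 to 17.2 CPM at 0 h. For 4 megakaryocyte markers it was 4.57 to 6.25 CPM against 15.4 to 27.4 CPM. The part of these markers in the changes was not tested either.

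There were 3 libraries that stood apart from their group mates in how their reads followed the GC content of genes: 0 h replicate 2, 4 h replicate 3 and 4 d replicate 1. Their log2 expression relative to the mates rose by 0.493, 0.369 and 0.316 per 10 points of GC content, with slopes of -0.355 to 0.0619 in the other 9 libraries. Each slope is taken against the mean of the 2 mates, so slopes within a group are tied and a high library pulls those of its mates down. The slope of -0.355, in 0 h replicate 1, was larger in size than that of 4 d replicate 1. In 4 h replicate 1 a read was found in 22265 genes, against 15198 to 15798 in the other libraries. The 8 transcripts followed this axis in part. NADK, QPRT and NADSYN1, at 56.5% to 58.7% GC content, stood above the mates in all 3 libraries, while NAMPT, SIRT1 and CD38, at 36.3% to 42.4%, stood below them in all 3. NADK was 1.95 times the level of its mates in 0 h replicate 2 and BST1 0.497 times. Over the 8 genes, Pearson's r between GC content and log2 ratio was 0.752 in 0 h replicate 2, 0.918 in 4 h replicate 3 and 0.832 in 4 d replicate 1, points that share a library and its base composition. These libraries were picked for their GC slope against the same mates, so a positive r is no separate support. Results are therefore also given from a fit that omits these 3 libraries. They were picked from the same data for standing apart, so leaving them out lowers the spread between replicates. The p-values of that fit can be too small, and its fold changes are the part to read.

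**Figure D1:**
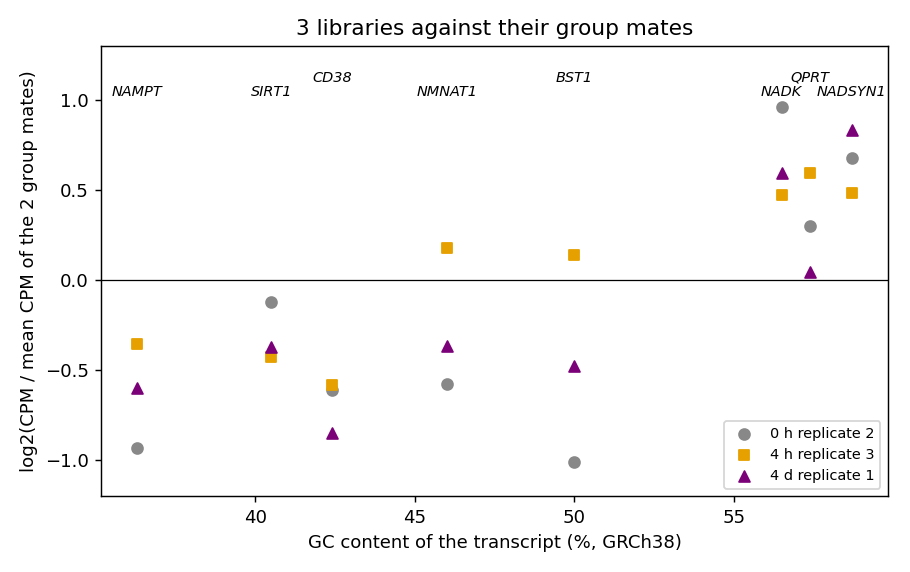
Log2 ratio of each transcript's CPM to the mean of its group mates (y axis) against the GC content of the transcript in percent (x axis), for the 3 libraries that stood apart. NAMPT, SIRT1 and CD38 lie below 0 and NADK, QPRT and NADSYN1 above 0 in all 3 libraries.

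The counts of called transcripts are given beside those of all tested genes. At 4 h against 0 h, 2 of the 8 were called, where 6.23% of all tested genes were. CD38 was higher, as were 2.00% of all genes, and QPRT lower, as were 4.23%, and for both the libraries of the 2 times did not overlap, which held for 25.5% of all genes. In the 2 d cells 3 of 8 were called against 0 h, where 35.6% of all genes were. CD38 was higher (16.9% of all genes), NAMPT and QPRT lower (18.7%), and the libraries of 4 of the 8 did not overlap (51.0%). In the 4 d cells 6 of 8 were called against 0 h, where 57.8% of all genes were. CD38, BST1, NMNAT1, NADK and SIRT1 were higher (28.1%) and QPRT lower (29.7%), and the libraries of 6 did not overlap (59.0%). For 2 d against 4 h, 1 of 8 was called, CD38, higher, beside 34.5% of all genes in either direction, 16.5% higher and 18.0% lower, and 5 did not overlap (53.1%). For 4 d against 2 d, 2 of 8 were called, NAMPT and NADK, both higher, beside 26.6% in either direction, 13.1% higher and 13.5% lower, and 4 did not overlap (48.0%). Over all 4 times 6 of 8 were called, all but NADSYN1 and SIRT1, beside 63.2% of all genes. At 2 d and 4 d and over all times many genes moved, and the shares of the 8 are read only as counts. The median log2 fold change of the 8 was -0.10 at 4 h, 0.30 at 2 d and 0.60 at 4 d against 0 h, and that of all tested genes was 0.00, -0.02 and 0.00. The 3 comparisons with 0 h share its libraries.

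CD38 was the transcript with the largest change in each comparison with 0 h. It was close to absent at 0 h and abundant within 4 h, and it was still high at 4 d. It stood at 1.19, 1.09 and 2.14 CPM in the 0 h replicates, at 79.1, 69.9 and 49.8 CPM at 4 h, at 135, 123 and 103 CPM at 2 d and at 54.4, 103 and 93.0 CPM at 4 d. Every treated library lay far above every 0 h library, and the treated groups overlapped except 4 h and 2 d. The 0 h values rest on 13, 12 and 22 reads. In bulk libraries, more cells with CD38 RNA and more CD38 RNA per cell cannot be told apart.

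CD38 rose by 5.49 ± 0.34 on the log2 scale at 4 h against 0 h (44.8-fold, adjusted p = 2.2e-06), by 6.35 ± 0.34 at 2 d (81.6-fold, adjusted p = 3.14e-08) and by 5.82 ± 0.34 at 4 d (56.5-fold, adjusted p = 1.97e-08). Of 254 genes called higher at 4 h, 9 had a larger fold change than CD38. At 2 d it was 31 of 2142 such genes, and at 4 d 85 of 3563. Without the 3 libraries that stood apart the log2 fold changes were 5.48, 6.17 and 5.88 at these times. The calls against 0 h held in each of 23 alternative fits.

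Between treated times CD38 rose by 0.86 ± 0.25 at 2 d against 4 h (adjusted p = 0.017). That call ended in 3 of 23 alternatives, with 0.67 without 4 h replicate 3 (adjusted p = 0.0725), 0.78 without 2 d replicate 1 (adjusted p = 0.0656) and 0.84 without 2 d replicate 2 (adjusted p = 0.0528; range over alternatives 0.000181 to 0.0725). At 4 d against 2 d the difference was -0.53 ± 0.25 and was not called (adjusted p = 0.139). The value was -0.29 without the 3 libraries that stood apart, and was called with an offset for GC content and length (-0.46, adjusted p = 0.0334) and with no filter on low counts (-0.55, adjusted p = 0.0466; range over 23 alternatives 0.0334 to 0.406). Plasma cells also carry much CD38, and their markers were set beside it. JCHAIN had 0 reads in all 12 libraries, SDC1 was at most 0.682 CPM, and the sum of the 4 markers was 0.198 to 0.831 CPM at 4 d against 47.8 to 82.3 CPM at 0 h, where nearly all of it was MZB1.

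**Figure D2:**
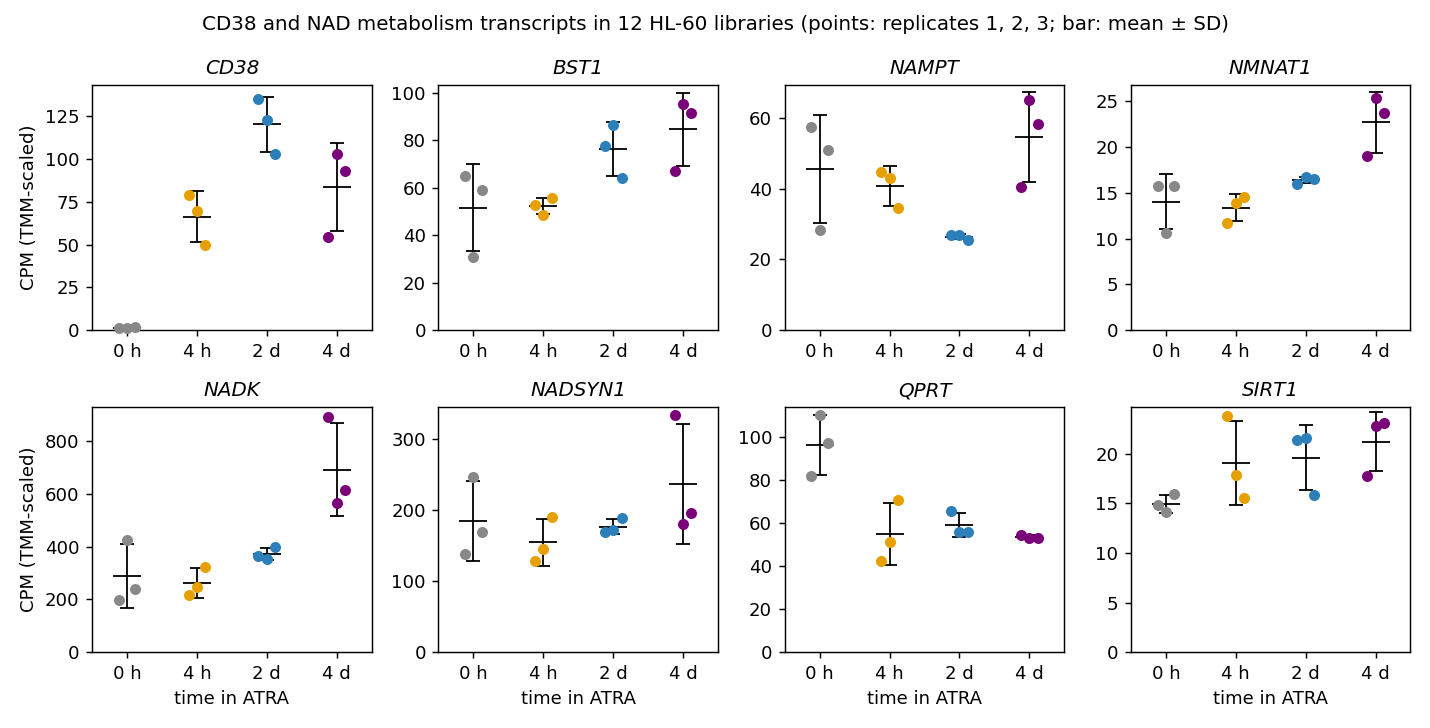
Level of the 8 transcripts in CPM after TMM scaling (y axes start at 0) in each library, by time in ATRA (x axis). Points are replicates 1, 2 and 3 from left to right, and bars are the mean ± SD of 3 libraries. CD38 is near 0 at 0 h and between 49.8 and 135 CPM in the treated libraries, while NAMPT is lowest at 2 d and QPRT is highest at 0 h.

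BST1, the paralog and neighbour of CD38, changed far less and later. It stood at 65.2, 30.8 and 59.0 CPM at 0 h, at 52.8, 48.6 and 55.7 CPM at 4 h, at 77.8, 86.7 and 64.1 CPM at 2 d and at 67.1, 95.4 and 91.4 CPM at 4 d. The 4 h libraries lay within the range of the 0 h libraries, and all 4 d libraries lay above them. Its log2 fold change was 0.02 ± 0.24 at 4 h (adjusted p = 0.964) and 0.56 ± 0.24 at 2 d (adjusted p = 0.0847). BST1 rose by 0.71 ± 0.24 at 4 d against 0 h (1.64-fold, adjusted p = 0.0214), by 0.59 without the 3 libraries that stood apart, by 0.45 without 0 h replicate 2 alone (adjusted p = 0.0459) and by 1.21 with the offset for GC content and length. The 4 d call ended without 4 d replicate 2 (0.61, adjusted p = 0.0674), without 4 d replicate 3 (0.65, adjusted p = 0.0665) and in a fit to the 6 libraries compared (0.71, adjusted p = 0.0664; range over alternatives 0.000193 to 0.0674). The 2 d value of BST1 was smaller, 0.29, both without 0 h replicate 2 (adjusted p = 0.223) and without the 3 libraries that stood apart (adjusted p = 0.0576). It was called in 3 of 23 alternatives, with that offset (0.87, adjusted p = 0.00426), with no filter on low counts (0.57, adjusted p = 0.0277) and without 0 h replicate 1 (0.77, adjusted p = 0.043; range over alternatives 0.00426 to 0.235). Its step at 2 d against 4 h, 0.54 ± 0.24 (adjusted p = 0.0978), was called in 6 of 23 alternatives, among them with 0 h replicate 2 left out (0.54, adjusted p = 0.0152; range over alternatives 0.000765 to 0.259). In the GENCODE annotation of GRCh38, 51 of its 2980 exon bases are shared with FAM200B on the same strand, which is counted as a gene of its own in the files. The same annotation has a protein-coding gene over 572 of the 3642 exon bases of QPRT and a sense-intronic one over 436 of the 4610 of NMNAT1, both on the same strand, and an antisense gene over 786 of the 9049 of NAMPT. Those 3 genes have no row under these names in the count files.

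NAMPT, which turns nicotinamide into nicotinamide mononucleotide and sets the pace of salvage, dipped at 2 d and was back at 4 d. It stood at 57.4, 28.4 and 51.0 CPM at 0 h, at 44.8, 43.1 and 34.4 CPM at 4 h, at 26.8, 26.9 and 25.6 CPM at 2 d and at 40.6, 65.0 and 58.3 CPM at 4 d. All 2 d libraries lay below the libraries of every other time, and 4 d overlapped 0 h. NAMPT fell by 0.79 ± 0.24 on the log2 scale at 2 d against 0 h (0.580-fold, adjusted p = 0.0218), and rose by 1.05 ± 0.24 at 4 d against 2 d (2.07-fold, adjusted p = 0.00656). At 4 d against 0 h it was 0.26 ± 0.24 (adjusted p = 0.36), and at 2 d against 4 h -0.63 ± 0.24 (adjusted p = 0.0592). The step at 2 d against 4 h was called in 10 of 23 alternatives, among them with 0 h replicate 2 left out (-0.63, adjusted p = 0.0123), or 4 h replicate 3 (-0.76, adjusted p = 0.046), 4 d replicate 1 (-0.63, adjusted p = 0.0404) or 4 d replicate 2 (-0.64, adjusted p = 0.0494; range over alternatives 1.89e-05 to 0.15).

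The rise of NAMPT at 4 d against 2 d was called in each of 23 alternative fits, while the call of the fall at 2 d ended in 7. The value at 2 d against 0 h was -0.58 without 0 h replicate 1 (adjusted p = 0.098), -0.70 once 0 h replicate 3 was dropped (adjusted p = 0.0683), and -0.79, -0.80 and -0.76 without 2 d replicates 1, 2 and 3 (adjusted p = 0.0647, 0.0605 and 0.066). It was also not called with library totals in place of TMM scaling (-0.73, adjusted p = 0.0717; range over alternatives 3.83e-07 to 0.098). Without the 3 libraries that stood apart NAMPT changed by -1.04 at 2 d against 0 h. The adjusted p of 3.83e-07, the lowest of that range, comes from this fit, whose p-values can be too small. With the offset for GC content and length it was also called lower at 4 h (-0.50, adjusted p = 0.025; range 0.025 to 0.94). NAMPT has processed pseudogene copies, and reads that match both may have been set aside, so its level is uncertain.

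NMNAT1, the nuclear enzyme that completes NAD from the mononucleotide, rose late. It stood at 15.7, 10.6 and 15.8 CPM at 0 h, at 11.7, 13.9 and 14.5 CPM at 4 h, at 16, 16.7 and 16.5 CPM at 2 d and at 19.0, 25.4 and 23.7 CPM at 4 d. All 4 d libraries lay above all others, and those of 2 d just above those of 0 h. NMNAT1 rose by 0.70 ± 0.18 at 4 d against 0 h (1.62-fold, adjusted p = 0.00521), a call that held in each of 23 alternative fits. Its log2 fold changes against 0 h were -0.07 ± 0.18 at 4 h (adjusted p = 0.829) and 0.23 ± 0.18 at 2 d (adjusted p = 0.358). The step at 4 d against 2 d, 0.47 ± 0.18, was not called (adjusted p = 0.0737), but was in 7 of 23 alternatives, among them with 0 h replicate 2 (0.47, adjusted p = 0.0243) or 4 d replicate 1 (0.58, adjusted p = 0.0414) left out (range over alternatives 0.00117 to 0.191).

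NMNAT3, the mitochondrial counterpart of NMNAT1, went the other way. It averaged 0.451 ± 0.0628 CPM at 4 d against 4.79 ± 0.295 CPM at 0 h (SD, n = 3 each), and fell (log2 fold change -3.38 ± 0.33, edgeR adjusted p = 1.97e-06). It was already lower at 2 d, with 0.944 ± 0.309 CPM and -2.31 ± 0.30 (edgeR adjusted p = 6.56e-05). The 4 d level of NMNAT3 rests on 14 reads over the 3 libraries, and its 2 d level on 32. PNP, which splits purine nucleosides and nicotinamide riboside, fell to 110 ± 5.80 CPM at 4 d, against 322 ± 23.9 CPM at 0 h (-1.54 ± 0.15, edgeR adjusted p = 1.62e-06). These belong to a list of 18 other genes of NAD synthesis and salvage, of which 9 were tested.

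QPRT, which turns quinolinate into nicotinic acid mononucleotide on the route from tryptophan, was lower at each time in ATRA. It stood at 81.8, 110 and 97.0 CPM at 0 h, at 42.5, 51.2 and 70.8 CPM at 4 h, at 65.4, 55.8 and 55.9 CPM at 2 d and at 54.4, 53.0 and 53.0 CPM at 4 d. Every treated library lay below every 0 h library, and 4 h overlapped 2 d and 4 d. QPRT fell by 0.81 ± 0.18 on the log2 scale at 4 h (0.569-fold, adjusted p = 0.0203), by 0.71 ± 0.18 at 2 d (0.613-fold, adjusted p = 0.00931) and by 0.85 ± 0.18 at 4 d (0.555-fold, adjusted p = 0.00145). The calls at 2 d and 4 d held in each of 23 alternative fits. The call at 4 h ended in 5 of 23 alternatives, among them without 4 h replicate 1 (-0.68, adjusted p = 0.0853) and without 4 h replicate 2 (-0.77, adjusted p = 0.109; range over alternatives 8.81e-05 to 0.109). Without the 3 libraries that stood apart the 4 h value was -0.93. With 4 h replicate 1 left out of that fit in place of 4 h replicate 3, it was -0.58 and not called (adjusted p = 0.0509). In a fit to the 6 libraries compared it was not called either (-0.83, adjusted p = 0.102).

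Upstream of QPRT, KMO, which hydroxylates kynurenine, rose to 6.93 ± 1.14 CPM at 4 d, against 0.373 ± 0.0906 CPM at 0 h (log2 fold change 4.17 ± 0.50, edgeR adjusted p = 1.14e-05). Its 0 h level rests on 12 reads over the 3 libraries. HAAO, whose product turns into quinolinate, rose to 21.2 ± 0.510 CPM, against 6.58 ± 1.48 CPM (1.69 ± 0.27, edgeR adjusted p = 0.000127). AFMID, which releases kynurenine from its formyl precursor, fell to 21.6 ± 6.72 CPM, against 73.4 ± 20.2 CPM (-1.77 ± 0.25, edgeR adjusted p = 4.13e-05). The 3 calls at 4 d held in each of 23 alternative fits. The enzymes that open the route had next to no reads: TDO2 had 3 reads over all 12 libraries, IDO1 6 and IDO2 4, and KYNU, which acts between KMO and HAAO, had 6. Of these reads 3, 5, 4 and 5 lay in 4 h replicate 1.

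NADSYN1, which amidates nicotinic acid adenine dinucleotide to NAD in the last step shared by the routes from tryptophan and nicotinic acid, showed no called change. It stood at 138, 247 and 170 CPM at 0 h, at 128, 145 and 191 CPM at 4 h, at 170, 172 and 189 CPM at 2 d and at 335, 181 and 196 CPM at 4 d. The highest value at each of 0 h, 4 h and 4 d was that of the library that stood apart, and all times overlapped their neighbours. Its log2 fold changes against 0 h were -0.26 ± 0.26, -0.06 ± 0.26 and 0.36 ± 0.26 at 4 h, 2 d and 4 d (adjusted p = 0.531, 0.868 and 0.256), and over all 4 times adjusted p = 0.199. The 4 d value of NADSYN1 was 0.02 without 4 d replicate 1 (adjusted p = 0.938) and 0.18 without 0 h replicate 1 (adjusted p = 0.606). It was called without 0 h replicate 2 (0.62, adjusted p = 0.0451) and without the 3 libraries that stood apart (0.29, adjusted p = 0.0491; range over alternatives 0.0451 to 0.938).

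NADK, the cytosolic NAD kinase, rose at 4 d. It stood at 198, 425 and 239 CPM at 0 h, at 216, 247 and 323 CPM at 4 h, at 364, 353 and 399 CPM at 2 d and at 892, 565 and 615 CPM at 4 d. All 4 d libraries lay above all others, while 0 h replicate 2 lay above the 2 d libraries. NADK rose by 1.27 ± 0.27 at 4 d against 0 h (2.41-fold, adjusted p = 0.00142), in each of 23 alternative fits, and by 1.44 without the 3 libraries that stood apart. At 2 d its log2 fold change was 0.37 ± 0.27 (adjusted p = 0.302), and it was 0.17 without 0 h replicate 1 (adjusted p = 0.67) and 0.26 without 0 h replicate 3 (adjusted p = 0.544). It was called without 0 h replicate 2 (0.77, adjusted p = 0.0151) and without the 3 libraries that stood apart (0.76, adjusted p = 4.91e-05; range over alternatives 4.91e-05 to 0.67). The step at 2 d against 4 h, 0.51 ± 0.27 (adjusted p = 0.168), was called in 4 of 23 alternatives, among them with 0 h replicate 2 left out (0.51, adjusted p = 0.0475; range over alternatives 0.000149 to 0.39).

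At 4 d against 2 d NADK rose by 0.89 ± 0.27 (adjusted p = 0.0277). That call ended in 5 of 23 alternatives, among them without each of 4 libraries: 0.87, 0.86 and 0.94 without 2 d replicates 1, 2 and 3 (adjusted p = 0.0857, 0.0889 and 0.0616) and 0.67 without 4 d replicate 1 (adjusted p = 0.0982; range over alternatives 0.00016 to 0.0982). NADK2, the mitochondrial NAD kinase, fell to 11.8 ± 1.15 CPM at 4 d, against 27.2 ± 7.59 CPM at 0 h (-1.21 ± 0.20, edgeR adjusted p = 0.000196). In the list of NAD synthesis and salvage, 2 of the 9 tested genes rose at 4 d against 0 h (KMO and HAAO) and 4 fell (NMNAT3, AFMID, PNP and NADK2), where 28.1% of all tested genes rose and 29.7% fell. Their median log2 fold change was -0.34, beside 0.00 over all tested genes.

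**Figure D3:**
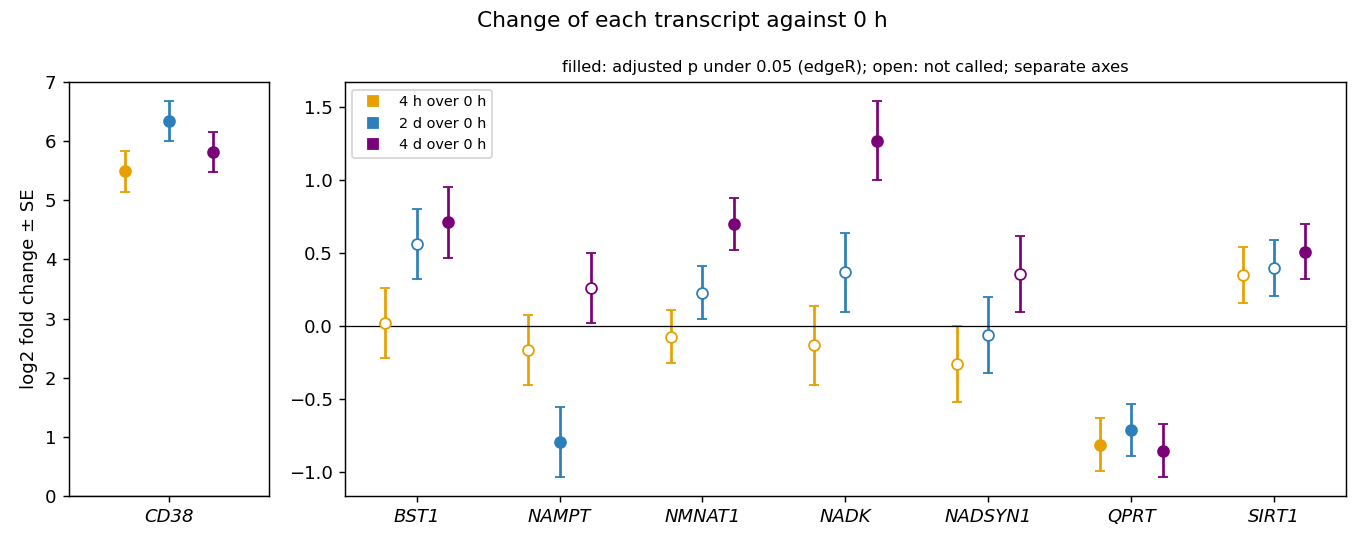
Log2 fold change ± SE of each transcript at 4 h, 2 d and 4 d over 0 h (y axes, CD38 on an axis of its own). Filled points passed an adjusted p of 0.05. CD38 lies between 5.49 and 6.35, QPRT is called lower at each time, and NAMPT is called lower at 2 d.

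SIRT1, a nuclear deacetylase that uses NAD as a cosubstrate, was higher at 4 d than at 0 h. It stood at 14.8, 14.1 and 15.9 CPM at 0 h, at 23.8, 17.9 and 15.5 CPM at 4 h, at 21.4, 21.6 and 15.8 CPM at 2 d and at 17.8, 22.8 and 23.1 CPM at 4 d. Neighbouring times overlapped, and the 4 d libraries lay above those of 0 h. SIRT1 was 0.51 ± 0.19 higher on the log2 scale at 4 d against 0 h (1.42-fold, adjusted p = 0.037), and 0.58 without the 3 libraries that stood apart. This call ended in 10 of 23 alternatives. It ended with library totals in place of TMM scaling (0.58, adjusted p = 0.0588), with no filter on low counts (0.50, adjusted p = 0.0693), and without 0 h replicates 1, 2 and 3 (0.50, 0.47 and 0.55, adjusted p = 0.0824, 0.0859 and 0.058), 4 h replicate 2 (0.50, adjusted p = 0.051), 2 d replicate 2 (0.51, adjusted p = 0.0547) and 4 d replicates 2 and 3 (0.44 in both, adjusted p = 0.12 and 0.116; range over alternatives 0.00644 to 0.12). Over all 4 times SIRT1 had adjusted p = 0.138.

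Among the 6 other sirtuins 5 were tested, and 2 rose and 0 fell at 4 d against 0 h (28.1% and 29.7% of all tested genes), with a median of 0.53, beside 0.00 over all tested genes. SIRT5, a mitochondrial desuccinylase, rose to 54.8 ± 9.08 CPM, against 25.5 ± 1.32 CPM at 0 h (1.11 ± 0.15, edgeR adjusted p = 3.2e-05). SIRT2, a mostly cytosolic deacetylase, rose to 75.7 ± 6.83 CPM, against 43.7 ± 3.86 CPM (0.79 ± 0.17, edgeR adjusted p = 0.00156). SIRT4 had 42 reads in all and was not tested.

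The poly(ADP-ribose) polymerase (PARP) family, which spends NAD on marking proteins with ADP-ribose, had members called in both directions. Of 15 tested genes of 16, 9 rose and 2 fell at 4 d against 0 h, where 28.1% of all tested genes rose and 29.7% fell. Their median was 0.75, beside 0.00 over all tested genes. Some of the 9 rises were less firm. The call of PARP8 ended in 15 of 23 alternatives, that of PARP4 in 7 and that of PARP10 in 4. With the offset for GC content and length PARP8 was at 0.04 (edgeR adjusted p = 0.827). The 4 d libraries of PARP10, at 251 to 610 CPM, overlapped those of 0 h. The other rises were called in each of 23 alternative fits. PARP1 and PARP2, both activated by DNA breaks, fell, while PARP3, also a DNA-break enzyme, was at 0.87 ± 0.43 and not called (edgeR adjusted p = 0.0985). PARP1 fell to 68.7 ± 17.3 CPM, against 237 ± 80.8 CPM at 0 h (-1.79 ± 0.26, edgeR adjusted p = 5.84e-05), and PARP2 to 16 ± 2.54 CPM, against 37.6 ± 1.35 CPM (-1.23 ± 0.16, edgeR adjusted p = 2.03e-05). PARP12, PARP14 and PARP9, which are known as interferon-inducible, rose most. PARP14 reached 69.0 ± 7.56 CPM, against 12.8 ± 0.817 CPM (2.42 ± 0.14, edgeR adjusted p = 1.97e-08), and was already called at 2 d (2.01 ± 0.14). PARP12 reached 9.66 ± 2.93 CPM, against 1.17 ± 0.478 CPM (3.02 ± 0.33, edgeR adjusted p = 5.07e-06), and PARP9 23.7 ± 1.72 CPM, against 7.35 ± 0.771 CPM (1.69 ± 0.17, edgeR adjusted p = 2.09e-06).

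Of the channels on which the products of CD38 act, those for ADP-ribose and for NAADP had many reads, and the ryanodine receptors RYR1 and RYR2 few. TRPM2, a calcium channel opened by ADP-ribose, rose to 821 ± 157 CPM at 4 d, against 393 ± 156 CPM at 0 h (1.06 ± 0.25, edgeR adjusted p = 0.00287). TPCN1, an endolysosomal channel linked to NAADP, rose to 265 ± 38.3 CPM, against 80.5 ± 19.6 CPM (1.72 ± 0.18, edgeR adjusted p = 4.13e-06). Both calls held in each of 23 alternative fits, although TRPM2 in 0 h replicate 2, at 572 CPM, lay above its mates at 283 and 325 CPM. RYR1 had 42 reads over the 12 libraries, 28 of them in 4 h replicate 1, and RYR2 had 38, 37 of them in that library. RYR3 was tested, and at 4 d averaged 0.314 ± 0.115 CPM, against 0.934 ± 0.419 CPM at 0 h. It was not called (-1.52 ± 0.88, edgeR adjusted p = 0.158). TPCN2, the other channel of the list linked to NAADP, was not called at 4 d either. It averaged 74.4 ± 14.8 CPM, against 58.3 ± 19.4 CPM (0.35 ± 0.21, edgeR adjusted p = 0.168). PECAM1 (CD31), a ligand of CD38, ranged from 5.95 to 9.36 CPM and was not called in any of the 5 comparisons. In this list 6 of 10 genes were tested, and 3 rose and 0 fell at 4 d against 0 h, where 28.1% of all tested genes rose and 29.7% fell (median 0.45, beside 0.00 over all tested genes). Of 10 other NAD-cleaving or nucleotide-hydrolysing enzymes 3 were tested, with 1 called at 4 d, SARM1, a NAD hydrolase, at 1.56 ± 0.518 CPM against 0.654 ± 0.0914 CPM at 0 h (1.23 ± 0.41, edgeR adjusted p = 0.0195). The SARM1 call ended in 4 of 22 alternatives, among them without 0 h replicate 1 (1.12, adjusted p = 0.067) and without 4 d replicate 2 (0.96, adjusted p = 0.107), and with the offset for GC content and length it was 0.61 (adjusted p = 0.198; range over alternatives 0.0143 to 0.198).

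**Figure D4:**
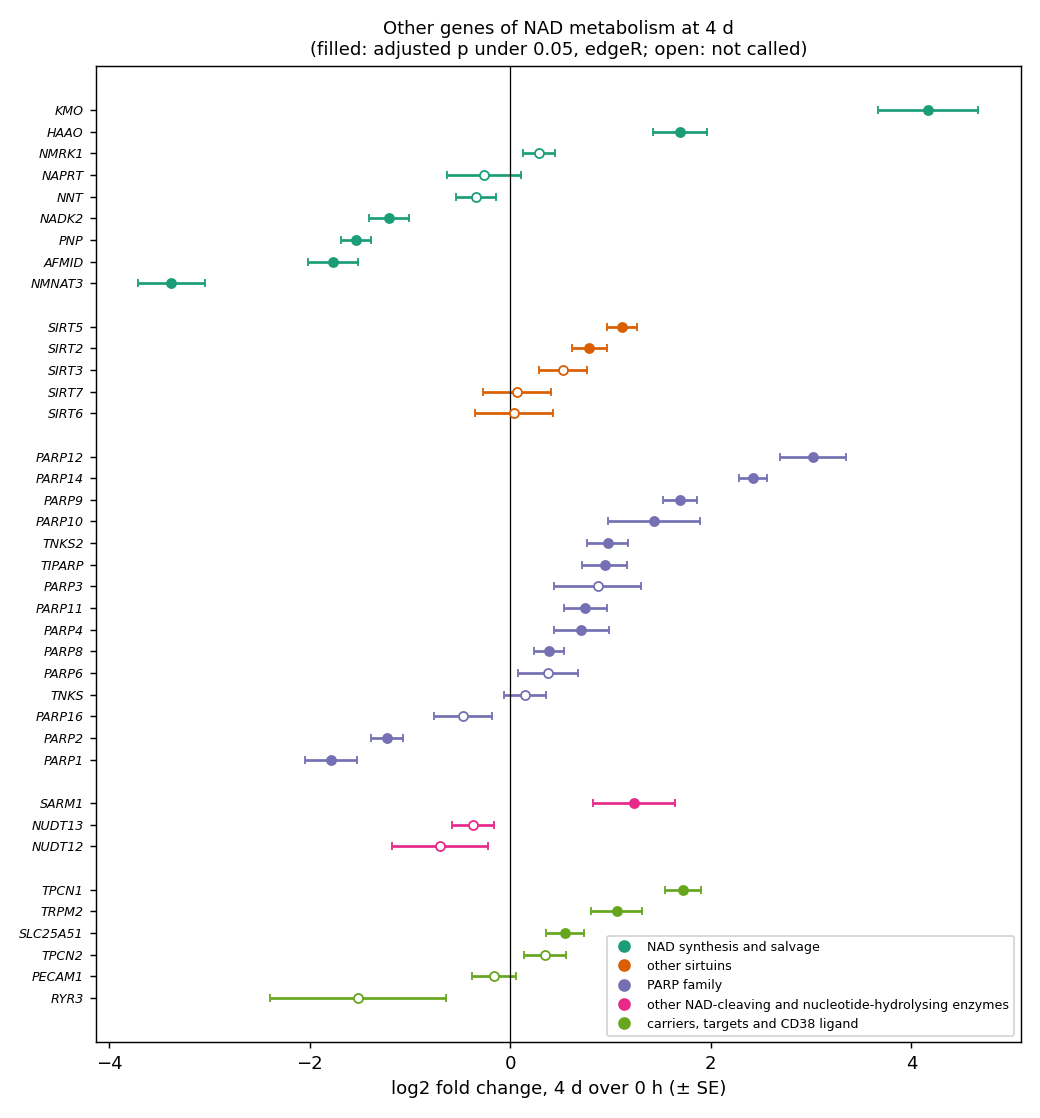
Log2 fold change ± SE at 4 d over 0 h (x axis) of the 38 tested genes of the 5 lists of NAD metabolism, grouped by list. Filled points passed an adjusted p of 0.05. KMO lies at 4.17, NMNAT3 at -3.38 and PARP1 at -1.79.

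Of the 60 other genes in the 5 lists 38 were tested. At 4 h against 0 h edgeR called 0 of them, where 6.23% of all tested genes were called, 4 had an unadjusted p under 0.05, and DESeq2 and limma-voom called 0. At 2 d against 0 h 9 rose and 3 fell, where 16.9% of all tested genes rose and 18.7% fell, and at 4 d 17 rose and 6 fell, where 28.1% of all tested genes rose and 29.7% fell. The 22 genes that were not tested had 280 reads together, and 55.4% of these lay in 4 h replicate 1.

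The genes with the pattern most like that of a member were sought among 8659 genes whose mean reached 10 CPM, by the root mean square difference of centred log2 CPM over the 12 libraries. For CD38, whose own profile varied by 2.53 about its mean, they were THBD at 0.941, MLXIPL at 0.968, SCUBE1 at 1.13, SOCS3 at 1.25 and GNG2 at 1.26. THBD, thrombomodulin, averaged 2.69, 21.5, 55.9 and 45.9 CPM at 0 h, 4 h, 2 d and 4 d. The nearest genes of the other members lay closer, but those members varied less. They were PRCP (0.0992) and SUMF1 (0.106) for BST1, RNF170 and METTL9 (0.227 each) for NAMPT, and SARAF (0.0914) and SNX27 (0.0987) for NMNAT1. They were GAK (0.124) and TRPM2 (0.125) for NADK, MAP4K2 (0.0778) and STRN4 (0.0879) for NADSYN1, NRROS (0.141) and JUP (0.149) for QPRT, and CLOCK (0.115) and GALNT3 (0.118) for SIRT1. The 12 libraries include the 3 that stood apart, so likeness also holds their shared deviations and is no measure of a shared response to ATRA.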

How the data were processed

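The 12 RNA-seq libraries of HL-60 cells comprised 3 at each of 0 h, 4 h, 2 d and 4 d of ATRA. The authors deposited 1 file of read counts per library, unnormalized, with a row for each gene symbol. Per the submitters' processing notes, FastQC, Trim Galore 0.6.7, HISAT2 2.1.0, hg19 and HTSeq 1.99.2 were used; for annotation, strand setting and kit, nothing is given in the sources used here. The 5 closing classes of reads outside genes were left out, of which reads in no gene were 14.0% to 28.1% of a library. Genes were filtered with filterByExpr (12671 of 26364 genes kept), scaled by TMM and fitted in 1 model with 4 group means (R 4.3.3, edgeR 4.0.16, 8 residual degrees of freedom). SEs were derived from the fold change and its F statistic. Replicates differed by 3.47 to 98.0 in chi-square per degree of freedom. The members, the lists, the alternatives and the choice of genes to name were all made with earlier results of these data known. Named were the 8 members, called genes of the 5 lists with the largest changes, and the 5 genes most like CD38 and 2 most like each other member; other genes named were chosen after their values were seen. Alternatives for pathway genes were added after seeing the data. GC content and length came from GENCODE 29 transcripts of GRCh38 (90.2% of genes matched); with no annotation of the build used for counting, levels were not compared between genes. Alternatives were RLE factors, library totals, DESeq2 1.42.0, limma-voom (limma 3.58.1), other filters, other thresholds, fits to 6 libraries, replicate number as a term, GC and length offsets, and libraries left out.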

Additional observations from a re-analysis of the deposited data

How the results depend on the processing

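Of the log2 fold changes of the 8 transcripts under 23 alternatives in 5 comparisons, 822 kept their direction and side of the threshold, 33 lost a call, 41 gained one and 24 changed sign; none of the 24 was called, and the cause was not tested. At 4 h against 0 h, BST1 was -0.27 and -0.29 in fits to 9 libraries that omitted 0 h replicate 2, 4 d replicate 1 and, in the first, 4 h replicate 1 or, in the second, 4 h replicate 3 (the 3 libraries that stood apart), -0.25 without 0 h replicate 2 alone and -0.01 without 4 h replicate 3. NADK was 0.36 and 0.09 in those fits to 9 libraries and 0.26 without 0 h replicate 2. NADSYN1 was 0.10 in the first of them. NAMPT was 0.04 and NMNAT1 0.02 without 0 h replicate 1, and NMNAT1 was 0.03 without 0 h replicate 3 and 0.00 without 4 h replicate 1. At 2 d against 0 h, NADSYN1 was 0.02 with library totals, 0.20 and 0.19 in the fits to 9 libraries and 0.20 without 0 h replicate 2. At 2 d against 4 h, NADSYN1 was -0.01 with the offset for GC content and length, and QPRT was -0.02 in the first fit to 9 libraries and -0.05 without 4 h replicate 1. SIRT1 was -0.08 without the 3 libraries that stood apart and -0.10, -0.02 and -0.04 without 4 h replicate 3, 2 d replicate 1 and 2 d replicate 2. At 4 d against 2 d, SIRT1 was -0.03 without 2 d replicate 3. The other ends of these ranges, each with 1 library left out, were 0.22 for BST1, -0.41 for NAMPT, -0.24 for NMNAT1 and -0.34 for NADK at 4 h against 0 h, -0.23 for NADSYN1 at 2 d against 0 h, 0.31 for QPRT and 0.23 for SIRT1 at 2 d against 4 h, and 0.22 for SIRT1 at 4 d against 2 d.

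Counts of called genes are given in the order 4 h, 2 d and 4 d against 0 h, 2 d against 4 h and 4 d against 2 d. With 1 library left out, the transcripts called were 1 to 2, 2 to 4, 4 to 6, 0 to 4 and 1 to 3 of 8 (5 to 6 over all times), the pathway genes 0 to 1, 10 to 16, 19 to 25, 10 to 16 and 8 to 15, and all genes 254 to 1519, 3124 to 4954, 6480 to 7627, 3266 to 5086 and 2110 to 4215. At 2-fold or more, 1, 1, 2, 0 and 1 transcripts were called, with 7, 6 and 5 pathway genes at 2 d against 0 h, 2 d against 4 h and 4 d against 2 d, and 495, 2122, 4460, 2140 and 1470 genes in all. At an adjusted p under 0.01, 1, 0 and 1 transcripts were called at 4 h against 0 h, 2 d against 4 h and 4 d against 2 d, 7 and 7 pathway genes in the last 2 of these, and 241, 2705, 2711 and 1745 genes in all (4 h and 2 d against 0 h, then the last 2). At 4 h against 0 h all genes called numbered 1339 with DESeq2, 1447 with the offset, 1960 with no filter, 261 in fits to the 6 libraries compared and 3192 without the 3 libraries that stood apart. Pathway genes there numbered 2 with the offset, 3 with no filter and 6 without the 3 libraries. Only 1 transcript was called there with the 6 libraries, and in the first fit to 9 libraries. At 2 d against 0 h, 22 pathway genes were called without the 3 libraries and 19 without the other set of 3. At 2 d against 4 h, 2 transcripts were called with DESeq2, 3 with the offset, 3 with no filter, 4 with the 6 libraries, 7 without the 3 libraries (22 pathway genes, 6725 genes) and 4 without the other set. At 4 d against 2 d, 4 transcripts and 20 pathway genes were called with the offset, and 20 pathway genes and 5549 genes without the 3 libraries. The cause of these shifts was not tested.

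With replicate number as a block, 381 genes and 1 transcript were called at 4 h against 0 h, and 1 transcript and 7 pathway genes at 4 d against 2 d. The calls lost under the block were those of QPRT at 4 h (-0.82, adjusted p = 0.0527), NAMPT at 2 d (-0.78, adjusted p = 0.0505) and SIRT1 at 4 d (0.51, adjusted p = 0.062) against 0 h, and of NADK at 4 d against 2 d (0.90, adjusted p = 0.0563). Over 18 same-numbered pairs the correlation of deviations ran from -0.809 to 0.671, 6 were over 0.1, and 2 of 12 libraries correlated best with their own number. The 3 libraries that stood apart carry different numbers and weigh on these deviations. A culture or batch shared by a replicate number can therefore not be told from these values. Intervals and SEs rest on 3 libraries a group, and CD38 at 0 h on 12 to 22 reads a library.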
